A study of Homo sapiens with 4 samples.

Results

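Transcripts of 10 genes of the NF-kB pathway were examined in ES2 cells treated with the LIFR inhibitor EC359. The genes were taken by symbol from the deposited count tables: the subunit genes NFKB1, NFKB2 and RELB, the feedback inhibitors NFKBIA and TNFAIP3, the survival gene BIRC3, and the chemokine genes IL8 (now named CXCL8), CXCL1, CXCL2 and CCL2. All 10 were among the 23228 gene symbols of the series, and 9 had enough reads to be tested, CCL2 being the exception. ES2 is an established human ovarian cancer cell line. Cells received vehicle (0.1% DMSO) or 10 nM EC359 for 12 h, and 2 libraries, which the study calls biologically independent, were sequenced for each treatment. The labels name no other agent and no allele for either treatment, and all values describe a single line in culture.

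NF-kB factors are dimers of REL-family proteins that are held in the cytoplasm by IkB proteins until a kinase complex, IKK, marks the IkB for destruction. Freed dimers enter the nucleus and switch on genes for cytokines, adhesion molecules and survival factors. They also switch on their own inhibitors, so that the signal ends. In many carcinomas the pathway is active without an outside stimulus, and the chemokines that it drives draw neutrophils and monocytes into the tissue.

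Reads counted on genes were 25603886 and 25572494 with vehicle, and 31707553 and 29914788 with EC359, so that both EC359 libraries were deeper. The quasi-likelihood test of edgeR was run over 12706 genes, and a gene was called where its p, adjusted by Benjamini-Hochberg, was under 0.01. Normalized counts are counts scaled to a common library size, and log2 fold changes are EC359 over vehicle. The line was checked against fixed marker lists. KRT7, KRT8, KRT18 and VIM were abundant, whereas EPCAM, CDH1, MUC16 and MSLN had at most 2 counts in any library. The list of 12 epithelial and ovarian markers also held VIM, which is a mesenchymal marker. The list summed to 166160 and 174076 normalized counts with vehicle, and 151947 and 155772 with EC359. Most of these counts were of VIM, which had a mean of 154352 with vehicle and 137283 with EC359 (log2 fold change -0.17). Of the 7 tested markers of this list, 6 had a log2 fold change above 0, and only VIM was below 0. The part of these sums in the results was not tested. Of 11 leukocyte markers, 8 were too low to test, and CD3E, AIF1 and TYROBP were at 0 in all libraries. PTPRC, the defining surface marker, had 1 count in 1 library. CD68 had the highest level of the leukocyte markers. The summed leukocyte markers ran from 2605 to 2761 normalized counts with vehicle and from 2578 to 2619 with EC359. Most of these counts were of CD68 alone, which had a mean of 2635 with vehicle and 2552 with EC359.

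Most of the 10 genes carry a sequence in front of their transcript start that NF-kB dimers are known to bind. RefSeq start windows were at hand for 8 of the genes, and the 250 bases before each start were placed on GRCh37, the assembly that UCSC names hg19, by exact match. Both strands were searched for the kappaB consensus, a degenerate motif of 10 bases, and for the 9-base core GGAATTTCC, which overlaps the consensus in most matches. The consensus was found in front of 7 of the 8 genes and the core in front of 5, and each gene had one or the other. Genes with several starts had matches in only some of their windows, so that 8 of 11 windows held the consensus and 5 held the core. Over all 35116 windows of the same length, 5.21% held the consensus and 0.413% held the core. A match is a description of the letters and was not tested as a binding site.

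The 30 bases around 1 match of each gene are printed on the gene's own strand so that the sites can be read side by side. Capitals mark the match. The stretches lie on GRCh37 at chr4:74735021-74735050 (CXCL1, plus strand), chr4:74964971-74965000 (CXCL2, minus strand), chr4:74606184-74606213 (IL8, plus strand), chr4:103422457-103422486 (NFKB1, plus strand), chr10:104154218-104154247 (NFKB2, plus strand), chr14:35874017-35874046 (NFKBIA, minus strand), chr6:138188319-138188348 (TNFAIP3, plus strand) and chr11:102188006-102188035 (BIRC3, plus strand).
CXCL1: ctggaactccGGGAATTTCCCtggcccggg
CXCL2: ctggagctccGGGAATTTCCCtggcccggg
IL8: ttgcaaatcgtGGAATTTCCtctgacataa
NFKB1: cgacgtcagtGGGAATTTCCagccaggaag
NFKB2: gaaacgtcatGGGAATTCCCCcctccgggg
NFKBIA: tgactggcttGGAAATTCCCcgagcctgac
TNFAIP3: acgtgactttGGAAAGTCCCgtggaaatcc
BIRC3: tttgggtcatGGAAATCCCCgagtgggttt

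CXCL1 and CXCL2 held the same 11-base match and nearly the same flanks, at 79 to 69 and 78 to 68 bases before the start. IL8 held the core with no consensus match, from 91 to 83 bases before its start. The NFKBIA site holds the core on the opposite strand. TNFAIP3 and BIRC3 each had a pair of consensus matches and no core match. The printed NFKB2 match lies 107 to 97 bases before start 2 of that gene. Its stretch is inside the annotated gene and overlaps an annotated NFKB2 exon.

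**Figure D1:**
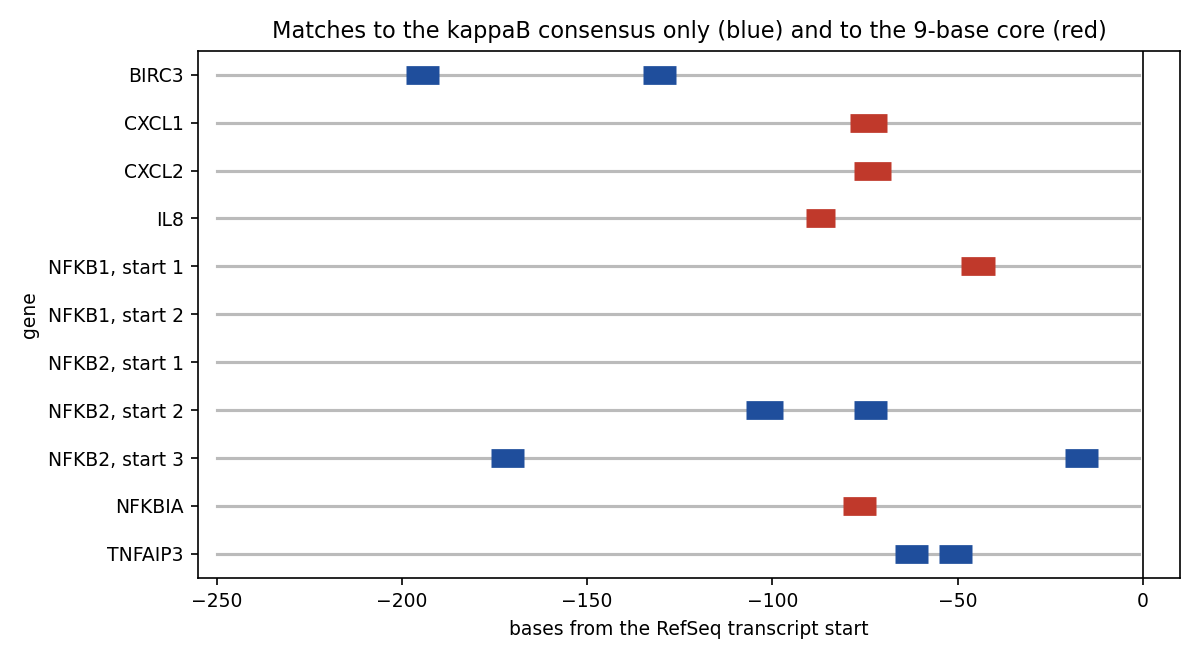
Positions of motif matches in the 250 bases before each RefSeq transcript start, in bases from the start, for the 8 genes with a start window (NFKB1 has 2 starts and NFKB2 has 3). Red blocks hold the 9-base core and blue blocks the kappaB consensus alone. The CXCL1, CXCL2, IL8 and NFKBIA matches all lie between 91 and 68 bases before the start, and the windows of NFKB1 start 2 and NFKB2 start 1 are empty.

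With EC359, the mean of IL8 was 0.879 times and that of BIRC3 1.28 times the vehicle mean, and neither gene passed the threshold. The other tested genes had between 0.918 and 1.07 times their vehicle mean. At an adjusted p under 0.01, edgeR's quasi-likelihood test called 0 of the 9 tested genes, where 0.299% of all tested genes were called higher and 0.795% lower. At an unadjusted p under 0.05, 1 of the 9 was higher (BIRC3) and 1 was lower (IL8), shares close to the background of 10.7% higher and 11% lower among all tested genes. BIRC3 was above that p with DESeq2 and without EC359 replicate 2. With limma voom 0 of the 9 genes were called, and edgeR's exact test called IL8 alone. DESeq2 called IL8 and gave no adjusted p for BIRC3, CXCL2, NFKBIA, RELB and TNFAIP3. In these bulk libraries, a change in the share of cells that make a transcript and a change in the transcript per cell cannot be told apart. The libraries of the treatments did not overlap for TNFAIP3 and BIRC3, which were higher, or for NFKB2 and IL8, which were lower. Such separation was seen in 26.1% (higher) and 25.4% (lower) of all tested genes. The median log2 fold change of the 9 genes was 0.011, and that of all tested genes was 0.003. The sign of the median of the 9 genes turned with GC trends removed (-0.022) and without vehicle replicate 1 (-0.039) or EC359 replicate 1 (-0.034). The median of all tested genes was -0.0089, 0.0016 and 0.0019 under these settings.

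**Figure D2:**
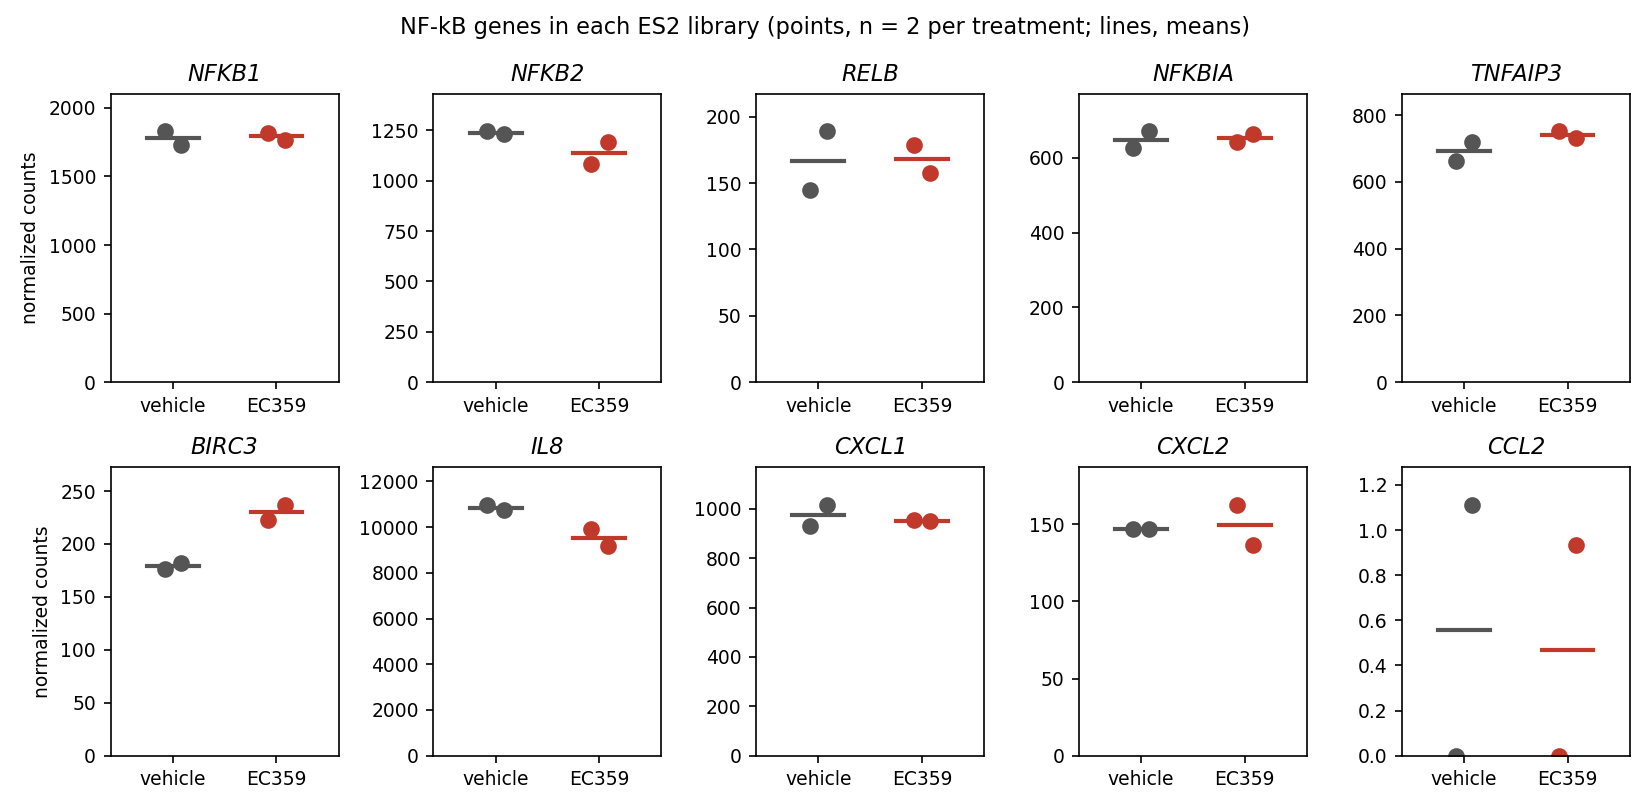
Normalized counts (y axis, from 0, one scale per panel) of the 10 genes in each library, with vehicle in grey and EC359 in red. Points are libraries (n = 2 per treatment) and lines are means. Only BIRC3 and TNFAIP3 have both red points above both grey points, IL8 and NFKB2 have both below, and CCL2 sits between 0 and 1.11 normalized counts.

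Levels of the genes were set against each other per transcript length, as CPM (the library-scaled share of counts) per kilobase of the longest annotated transcript. IL8 had by far the highest level with vehicle, at 191 ± 3.17 (SD, n = 2), followed by CXCL1 at 29.4 ± 1.88 and NFKB2 at 12.9 ± 0.104. NFKBIA and NFKB1 both had a level of 8.96 and did not differ beyond their spread. CXCL2 (4.67 ± 0.00380) and TNFAIP3 (4.51 ± 0.260) were next and also lay within their spread. RELB (2.62 ± 0.496) and BIRC3 (0.925 ± 0.0210) had the lowest levels of the tested genes. The level of IL8 was 206 times that of BIRC3. With the median length of each gene's annotated transcripts this ratio was 156 and the order changed. NFKB2 (52.0) and NFKB1 (40.8) then came before CXCL1 (39.5), NFKBIA (14.9) lay well below NFKB1, and RELB (7.04) lay above TNFAIP3 (5.25), so that only the places of IL8, CXCL2 and BIRC3 were the same under both lengths.

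**Figure D3:**
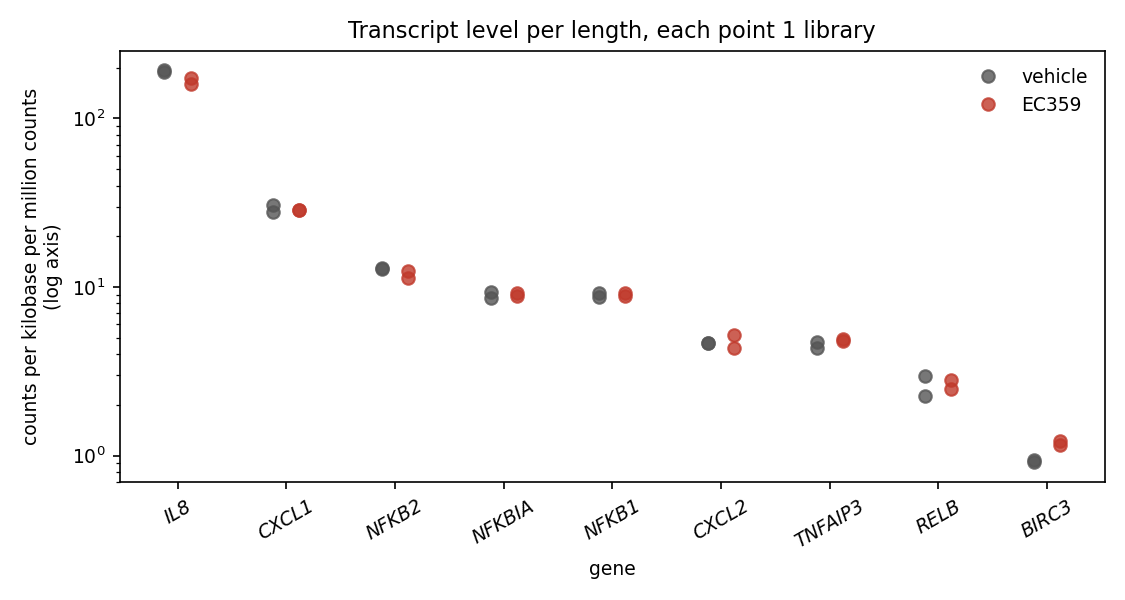
Level of each tested gene in CPM per kilobase (log axis), each point 1 library, with vehicle in grey and EC359 in red. Genes are ordered by their vehicle mean, from IL8 at 191 to BIRC3 at 0.925, and the points of the treatments lie close together for every gene beside the spread of levels between genes.

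NFKB1 encodes p105, the precursor of the p50 subunit, and lies on chromosome 4 of GRCh37 from 103422487 to 103538459. Its normalized counts were 1831 and 1730 with vehicle, and 1819 and 1767 with EC359. The libraries overlapped, with both EC359 values inside the vehicle range. The log2 fold change was 0.010 (standard error 0.052, 95% interval -0.10 to 0.12, adjusted p = 0.938 from edgeR).

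NFKB2 encodes p100, the precursor of the p52 subunit of the non-canonical branch, and lies on chromosome 10 from 104153867 to 104162281. It had 1246 and 1232 normalized counts with vehicle, and 1084 and 1191 with EC359. Both EC359 libraries were below both vehicle libraries, but they were farther from each other than the nearer one was from the vehicle libraries. The log2 fold change was -0.12 (standard error 0.063, 95% interval -0.26 to 0.016, adjusted p = 0.283 from edgeR).

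RELB, the partner of p52, lies on chromosome 19 from 45504719 to 45541450. It had 144 and 189 normalized counts with vehicle, and 179 and 158 with EC359. The libraries overlapped, and the vehicle values spread more widely than the EC359 values. The log2 fold change was 0.014 with a 95% interval from -0.32 to 0.35, so that changes within this interval in either direction are not excluded.

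NFKBIA encodes IkB-alpha, the inhibitor that NF-kB induces first and that masks its dimers. It lies on chromosome 14 from 35870285 to 35873955. Its normalized counts were 625 and 671 with vehicle, and 642 and 664 with EC359. Both EC359 values lay between the vehicle values, and the log2 fold change was 0.011 (95% interval -0.15 to 0.17, adjusted p = 0.954 from edgeR).

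TNFAIP3 encodes A20, an enzyme that edits ubiquitin chains and shuts off signals to IKK. The gene lies on chromosome 6 from 138188351 to 138204451, and its exons overlap those of WAKMAR2 on the other strand, whose reads cannot be told apart from its own because the strand setting of the counting is not given in the sources used here. It had 664 and 719.9 normalized counts with vehicle, and 752 and 731 with EC359. Both EC359 libraries were higher, the nearer one by less than the vehicle libraries differed between themselves. The log2 fold change was 0.10 (standard error 0.071, 95% interval -0.056 to 0.26, adjusted p = 0.448 from edgeR).

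BIRC3 encodes cIAP2, a ubiquitin ligase that keeps TNF receptor signals on the side of survival and is itself an NF-kB target. It lies on chromosome 11 from 102188215 to 102210134. Normalized counts were 177 and 182 with vehicle, and 223 and 237 with EC359. Every EC359 value was above every vehicle value, and the gap between the treatments was wider than the distance between replicates. The level with EC359 was 1.28 times that with vehicle (log2 fold change 0.36, standard error 0.11, 95% interval 0.11 to 0.61, unadjusted p = 0.00960, adjusted p = 0.0991 from edgeR). Under 10 alternatives with all 4 libraries BIRC3 was not called. Its adjusted p ran from 0.0233 to 0.124, and DESeq2, 1 of the 10, gave it none. Exons of an unnamed gene on the other strand overlap BIRC3, and reads of this pair cannot be told apart either. The related gene BIRC2, which encodes cIAP1, had a log2 fold change of 0.069 (standard error 0.036 and adjusted p = 0.289, edgeR).

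IL8, the main attractant of neutrophils, had the lowest log2 fold change of the 9 tested genes. It lies on chromosome 4 from 74606236 to 74609433. It had 10985 and 10730 normalized counts with vehicle, and 9923 and 9160 with EC359. Both EC359 libraries were below both vehicle libraries, and the EC359 libraries differed more between themselves than the vehicle libraries did. The vehicle mean was 10858 ± 181 and the EC359 mean 9542 ± 539 (SD, n = 2 per treatment), which is 0.879 times the vehicle level. The log2 fold change was -0.19 (standard error 0.041, 95% interval -0.28 to -0.096), with an unadjusted p of 9.2e-04 that became 0.0304 after adjustment in edgeR. IL8 was called with DESeq2 (adjusted p = 0.0055), edgeR's exact test (adjusted p = 0.00255) and GC trends removed (adjusted p = 8.6e-07), and over 10 alternatives with all libraries the adjusted p reached 0.0543, with no filter. Without EC359 replicate 1 or 2 the log2 fold change was -0.25 or -0.13 and the adjusted p 0.29 or 0.415, in fits that called 0 and 2 genes over all.

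CXCL1 and CXCL2 encode chemokines that bind CXCR2, the receptor they share with IL8, and lie near IL8 on chromosome 4, from 74735110 to 74737025 and from 74962757 to 74964913. CXCL1 had 929 and 1017 normalized counts with vehicle, and 953 and 951 with EC359. Both EC359 values lay inside the vehicle range, and the log2 fold change was -0.031 (95% interval -0.18 to 0.11). CXCL2 had 147 normalized counts in both vehicle libraries, and 163 and 136 with EC359. The EC359 libraries lay on either side of the vehicle libraries, and the log2 fold change was 0.029 (95% interval -0.28 to 0.34). Of the 50-base windows of the longest CXCL1 and CXCL2 transcripts, 5.33% and 10.1% also occur in transcripts of another gene, mostly of each other, and reads from these windows cannot be assigned to 1 gene.

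CCL2, which attracts monocytes and lies on chromosome 17 from 32582293 to 32584227, was barely detected. It had 0 and 1 counts with vehicle, and 0 and 1 with EC359. These values are under the 3 counts that a count of 0 allows, equal to between 0.0946 and 0.117 CPM in these libraries, and no fold change is given. The floor of 3 counts covers counting error only, whereas the intervals of log2 fold changes include the spread between replicates.

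Other chemokines encoded beside IL8 on chromosome 4 were measured as well. CXCL5 lies from 74861359 to 74864394, and among the listed cytokine and chemokine targets it had the highest level, at 349 CPM per kilobase with vehicle. It had 24159 and 23834 normalized counts with vehicle, and 23093 and 22279 with EC359 (log2 fold change -0.081 ± 0.031 standard error, edgeR adjusted p = 0.162). An unnamed gene on the other strand overlaps CXCL5. CXCL3, which was singled out after its values had been seen, had 471 and 438 normalized counts with vehicle, and 409.5 and 395 with EC359 (log2 fold change -0.18 with standard error 0.083, adjusted p = 0.247). In both genes the EC359 libraries lay below the vehicle libraries. CXCL6, which lies between IL8 and CXCL1, had 1 count in 1 library and was not tested. The log2 fold changes of the 5 tested chemokine genes listed here from this locus ran from -0.19 for IL8 to 0.029 for CXCL2, and differences between these genes were not tested. Of the listed chemokine receptors, CXCR1 had 1 count in 1 library, and CXCR2, CCR2 and ACKR1 had 0 counts in every library.

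**Figure D4:**
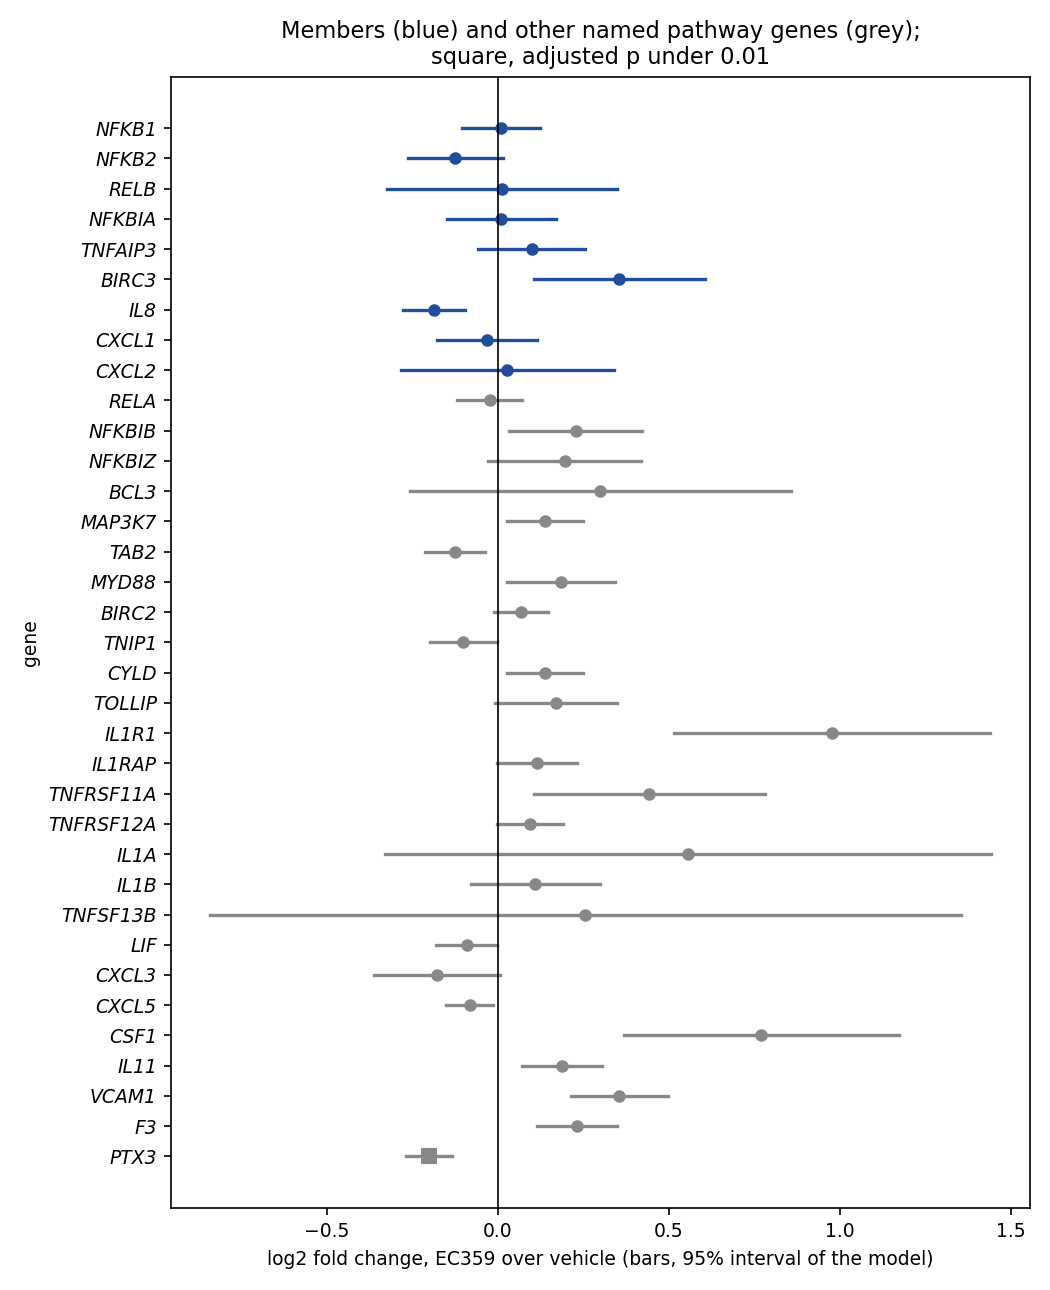
Log2 fold change (EC359 over vehicle, x axis) with its 95% interval from the model for the 9 tested genes in blue and for other named pathway genes in grey. A square marks an adjusted p under 0.01. Among the blue genes the intervals of BIRC3 (0.11 to 0.61) and IL8 (-0.28 to -0.096) do not include 0, and PTX3 is the only square.

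The rest of the pathway was read from lists of 128 further genes, of which 92 were tested. With edgeR's quasi-likelihood test 0 were called higher and 1 was called lower, against 0.299% and 0.795% of all tested genes. At an unadjusted p under 0.05, 16 were higher and 7 were lower, against 10.7% and 11% of all tested genes. The median log2 fold change of these 92 genes was 0.079.

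Among the 7 other REL and IkB family genes, all tested, 1 was higher and 0 were lower at an unadjusted p under 0.05. The shares over all tested genes were 10.7% and 11%. In this family 0 genes were called, and the median log2 fold change was 0.20. RELA, the p65 subunit and the most abundant of them, had 4193 and 4465 normalized counts with vehicle, and 4175 and 4348 with EC359, a log2 fold change of -0.023 (95% interval -0.12 to 0.072). NFKBIB, which encodes IkB-beta, had 496 and 557 with vehicle, and 582 and 653 with EC359. Its EC359 libraries were both higher (log2 fold change 0.23 ± 0.088 standard error, edgeR adjusted p = 0.166). NFKBIZ and BCL3, which encode nuclear IkB proteins, had log2 fold changes of 0.20 and 0.30 with adjusted p of 0.291 and 0.531.

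The IKK complex with its upstream kinases and adaptors gave 27 tested genes, with 13 above and 14 below a log2 fold change of 0, a median of -0.006 (0.018 with total counts only) and 0 called by edgeR. At an unadjusted p under 0.05, 3 were higher and 3 were lower, against 10.7% and 11% of all tested genes. The lowest adjusted p of these 27 was that of TAB2, which links ubiquitin chains to the kinase TAK1 (log2 fold change -0.12, adjusted p = 0.0989). MAP3K7, the gene for TAK1 itself, had a log2 fold change of 0.14 (adjusted p = 0.142), and MYD88, the adaptor of IL-1 and Toll-like receptors, had 0.18 (adjusted p = 0.167). Of 14 negative regulators 12 were tested and 0 were called, with a median of -0.006 (0.018 with total counts only). At an unadjusted p under 0.05, 1 was higher and 1 was lower, against 10.7% and 11% of all tested genes. With total counts only the median of all tested genes was also higher, at 0.027. CYLD, a deubiquitinase that removes the chains, had a log2 fold change of 0.14 (adjusted p = 0.145), TNIP1, which works with A20, had -0.10 (adjusted p = 0.228), and TOLLIP had 0.17 (adjusted p = 0.253).

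Receptors and ligands of the pathway were unevenly present. Of 16 receptors 10 were tested, with 0 called by edgeR and a median log2 fold change of 0.10. At an unadjusted p under 0.05, 2 were higher and 0 were lower, against 10.7% and 11% of all tested genes. IL1R1, the signaling receptor for interleukin-1, lies on chromosome 2 from 102681004 to 102796334. It had 37.8 and 34.5 normalized counts with vehicle, and 72.5 and 70.0 with EC359. The values of each treatment lay close together and far from those of the other, with EC359 at 1.97 times vehicle (log2 fold change 0.98, standard error 0.21, 95% interval 0.52 to 1.44, adjusted p = 0.0278 from edgeR). Its partner IL1RAP had a log2 fold change of 0.12 (adjusted p = 0.232). TNFRSF11A, the receptor RANK, had 0.44 (adjusted p = 0.125), and TNFRSF12A, the most abundant receptor of the list, had 0.094 (adjusted p = 0.240).

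Of 13 ligands only 4 had enough reads to test, and 4 were at 0 in all libraries. TNF had 0 counts in both vehicle libraries, and 2 and 1 with EC359. IL1B, an NF-kB target as well as an inducer, was the abundant ligand, with 665 and 633 normalized counts with vehicle, and 754 and 646 with EC359. Its libraries overlapped (log2 fold change 0.11, 95% interval -0.078 to 0.30). IL1A had 17.8 and 11.1 normalized counts with vehicle, and 26.5 and 15.9 with EC359, and TNFSF13B had a log2 fold change of 0.26 with an interval from -0.84 to 1.35.

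The list of other cytokine and chemokine targets held 20 genes, of which 10 were tested and 0 were called by edgeR. At an unadjusted p under 0.05, 2 were higher and 2 were lower, against 10.7% and 11% of all tested genes. The median log2 fold change of the list was 0.079. This median was -0.029 without vehicle replicate 2, 0.015 without EC359 replicate 2 and 0.046 without vehicle replicate 1. CSF1, the growth factor of macrophages, lies on chromosome 1 from 110452864 to 110473614. It had 83.4 and 109 normalized counts with vehicle, and 144 and 185 with EC359. All EC359 values were above all vehicle values, although replicates differed in both treatments (1.71 times vehicle, log2 fold change 0.77 ± 0.18 standard error, edgeR adjusted p = 0.0411). IL11, a cytokine of the IL-6 family, had 1454 and 1512 normalized counts with vehicle, and 1657 and 1723 with EC359 (log2 fold change 0.19, adjusted p = 0.0735). LIF, the ligand of the receptor that EC359 inhibits, also belongs to this list and was singled out after its values had been seen. It had 3781 and 3958 normalized counts with vehicle, and 3676 and 3597 with EC359 (log2 fold change -0.090, adjusted p = 0.230).

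The list of other target genes held 27 genes for adhesion, survival, defense and antigen processing. Of the 22 tested, 19 had a log2 fold change above 0, as did 6476 of all 12706 tested genes. At an unadjusted p under 0.05, 7 were higher and 1 was lower, against 10.7% and 11% of all tested genes, and the median was 0.094. No test of the list was run. PTX3, a secreted pattern-recognition protein and the most abundant gene of this list, was the 1 gene called. It lies on chromosome 3 from 157154639 to 157161422 and fell from 22033 and 21461 normalized counts with vehicle to 19065 and 18785 with EC359. The fall was larger than the distance between replicates (log2 fold change -0.20 ± 0.030 standard error, edgeR adjusted p = 0.00677). PTX3 was not called without a filter (adjusted p = 0.0132), with total counts only (adjusted p = 0.0102), or without EC359 replicate 1 (log2 fold change -0.21, adjusted p = 0.348) or EC359 replicate 2 (-0.19, adjusted p = 0.307). In those last fits 0 and 2 genes were called over all.

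VCAM1, an adhesion molecule that binds leukocytes, lies on chromosome 1 from 101185298 to 101204601. It had 692 and 699 normalized counts with vehicle, and 906 and 875 with EC359, 1.28 times the vehicle level. Replicates lay close together and apart from the other treatment, and the log2 fold change was 0.36 (standard error 0.064, 95% interval 0.21 to 0.50, adjusted p = 0.0144 from edgeR). F3, the tissue factor that starts coagulation, had 1266 and 1252 normalized counts with vehicle, and 1485 and 1472 with EC359 (log2 fold change 0.23 ± 0.053 standard error, edgeR adjusted p = 0.0366). With edgeR's exact test, a replicate block and GC trends removed, 568, 1539 and 1134 of all genes were called. IL1R1, CSF1, VCAM1 and F3 were among those called in each of these fits. They were not called with other scaling factors, voom or no filter, VCAM1 and F3 were not called with DESeq2, which gave no adjusted p for IL1R1 and CSF1, and without EC359 replicate 1 or 2 their adjusted p ran from 0.295 to 0.409.

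**Figure D5:**
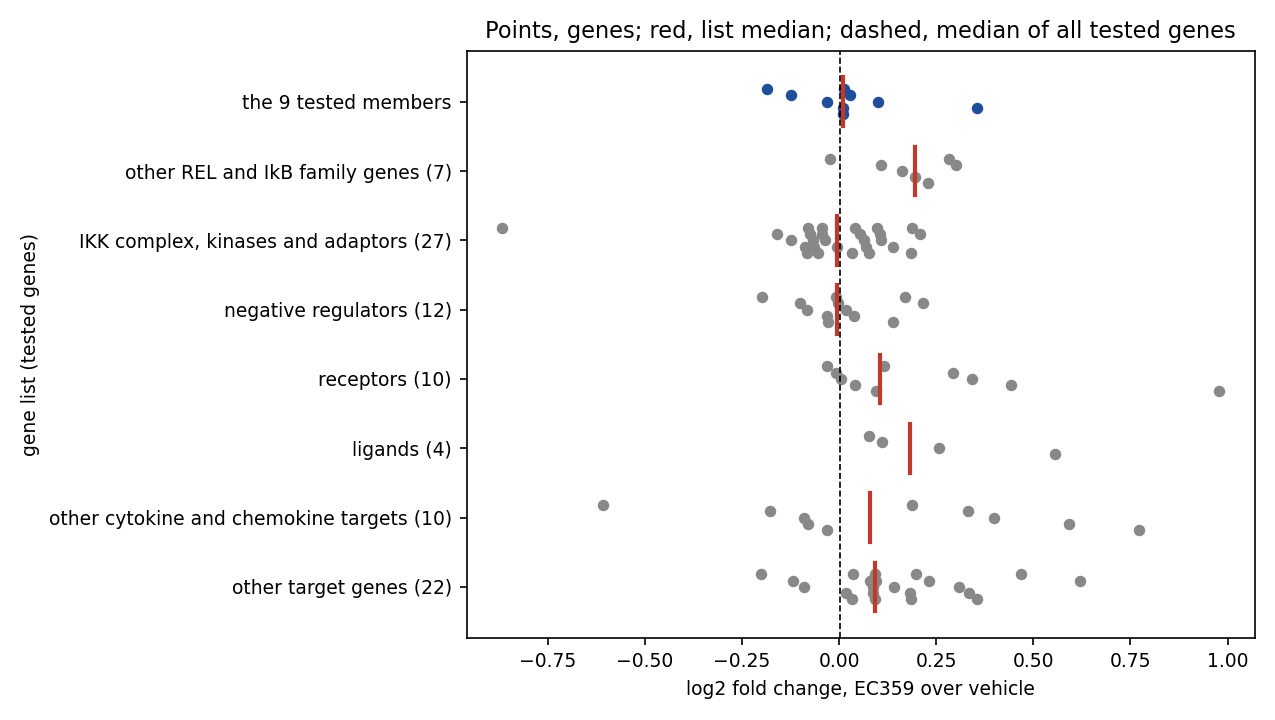
Log2 fold change (EC359 over vehicle, x axis) of the tested genes of each list, each point 1 gene, with red lines at list medians and a dashed line at the median of all tested genes (0.003). The medians of the 9 genes (0.011), of the kinases and adaptors (-0.006) and of the negative regulators (-0.006) lie near the dashed line (the last 2 are 0.018 with total counts only and cross 0 with 1 library left out), and those of the other REL and IkB family genes (0.20), receptors (0.10), ligands (0.18) and other target genes (0.094) lie to its right. Without EC359 replicate 2 the medians of the REL and IkB family and of the receptors are 0.096 and 0.043, and without vehicle replicate 1 that of the ligands is 0.49. The median of all tested genes is itself 0.027 with total counts only.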

How the data were processed

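RNA of 4 ES2 libraries, 2 per treatment, was measured. After base calling with CASAVA 1.8.2, the authors used TopHat2 2.0.8b to align the reads to hg19 and HTSeq to count them per RefSeq gene. What they deposited are unnormalized counts, listed by symbol. The 5 HTSeq summary rows of each file were left out, among them reads outside genes (10.9% to 12% of uniquely aligned reads) and ambiguous reads (0.852% to 0.879%).

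Genes were filtered with filterByExpr (minimum count 10, minimum total 15), scaled with TMM factors and tested across all genes with edgeR 4.0.16 in R 4.3.3, without a replicate block. The size of each log2 fold change over the root of its F gave the standard error, and intervals use the degrees of freedom of the model. The biological coefficient of variation was 3.5%, and replicates differed by more than sampling noise (chi-square per degree of freedom 3.78 for vehicle and 2.69 for EC359). Alternatives were RLE or upper-quartile factors, total counts, DESeq2 1.42.0, the exact test, voom of limma 3.58.1, other filters, an adjusted p under 0.05, a replicate block, GC trends removed per library, and leaving out each library. Lengths, places and GC content came from GENCODE on GRCh37, where 91.8% of symbols matched, and start windows came from RefSeq (table of build GRCh38.p14, where the window of each gene had 1 exact match on its GRCh37 chromosome). The code was tested on simulated data. The 10 genes and all lists were chosen with earlier results of these data known. Named in the text are the 10 genes and, from each further list, called genes, the 3 with the lowest p and the one with the highest level, with markers of cell types by count.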

Additional observations from a re-analysis of the deposited data

How the results depend on the processing

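RELB, CXCL2 and BIRC3 were the tested NF-kB genes with the fewest counts and the widest intervals. The part of depth in these widths was not tested. Each residual spread rests on 2 libraries per treatment. The number of called genes was 139 over all tested genes, 0 among the 9 NF-kB genes and 1 in the further lists. These counts were 236, 1 and 1 with DESeq2, 568, 1 and 5 with the exact test, 549, 1 and 5 at an adjusted p under 0.05, 1134, 1 and 8 with GC trends removed, and 61, 0 and 0 without a filter. Total counts only gave 0 called genes in the further lists. DESeq2 gave 1 NF-kB gene at an unadjusted p under 0.05 where the quasi-likelihood test gave 2. The cause of these changes was not tested, except that no filter meant more genes tested. DESeq2 gave no adjusted p for BIRC3, CXCL2, NFKBIA, RELB and TNFAIP3. Where an NF-kB gene was called, it was IL8.

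The treatments share the replicate numbers 1 and 2, and nothing in the sources says that a number marks a batch. The difference between replicates correlated at only 0.0987 between the treatments. A replicate block called 1539 genes, 1 NF-kB gene (IL8, adjusted p = 3.5e-07) and 9 genes of the further lists.

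With 1 library left out, between 0 and 539 genes were called over all, between 0 and 1 among the NF-kB genes and between 0 and 4 in the further lists. A treatment left with 1 library is then assumed to vary like the other. The log2 fold changes ran from -0.25 to -0.13 for IL8 and from 0.31 to 0.40 for BIRC3, and they crossed 0 for NFKB1 (-0.035 to 0.052), RELB (-0.17 to 0.22), NFKBIA (-0.039 to 0.058), CXCL1 (-0.095 to 0.029), CXCL2 (-0.11 to 0.15), RELA (-0.067 to 0.017), IL1B (-0.0064 to 0.22), TNFSF13B (-0.16 to 0.83) and the median of the 9 genes (-0.039 to 0.032). The medians of 3 further lists also crossed 0, those of the kinases and adaptors (-0.019 to 0.015), the negative regulators (-0.014 to 0.013) and the other cytokine and chemokine targets (-0.029 to 0.11). The median of the kinases and adaptors was 0.014 with at least 10 counts in every library, and that of the ligands 0.11. With GC trends removed NFKB1 (-0.031), RELB (-0.022) and the median (-0.022) turned sign, and with total counts only RELA did (8e-04). The median of all tested genes was -0.0089 with GC trends removed and 0.027 with total counts only. The level ratio of IL8 to BIRC3 was 156 with median transcript lengths, against 206.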
